A study of Mus musculus with 9 samples.

Results

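The heat-shock chaperone transcripts described here are those of 10 mouse genes: Hspa1a, Hspa1b, Hspa4l, Hspa5, Hspa8, Hsp90aa1, Hsp90ab1, Hsph1, Dnajb1 and Hspb1. They were chosen because Hspa1a and Hspa1b stood higher in sorted rod-reporter cells than in other retinal cells. Every probe set that the array annotation ties to one of these symbols alone was taken. This gave 27 of the 45037 probe sets that are not controls, and 9 of the 18193 genes measured, since no probe set was listed for Hsp90ab1 alone. All 9 measured genes lay above the 40th percentile of mean signal.

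RNA came from retinal cells sorted by GFP fluorescence and was hybridised to 9 Affymetrix arrays, 3 in each of 3 groups. The rhoGFP-positive and rhoGFP-negative groups are both fractions of retinae of rhoEGFP mice at postnatal day 4. The nestinGFP-positive group is the GFP-positive fraction of retinae of pNestin-GFP mice at postnatal day 0. All 3 groups share the background C57BL/6J-129/Ola, a GFP reporter and passage through a cell sorter, and a replicate is a pool of retinae from 6 to 8 mice. As their names give them, the reporters are tied to rhodopsin, the rod pigment, and to nestin, a filament protein of neural progenitors, so that each group is defined by reporter activity and may hold more than one cell type. No unsorted retina and no GFP-negative fraction of the pNestin-GFP line was analysed here, and the sources used here do not give the time and temperature of dissociation and sorting.

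Chaperones bind unfolded or partly folded proteins and keep them from aggregating. HSP70 proteins do this in cycles of ATP hydrolysis that HSP40 partners start and that nucleotide exchange factors, among them the HSP110 proteins, reset, and HSP90 proteins take over clients for late folding steps. The constitutive members run at all times, whereas the inducible HSP70 genes are switched on by heat-shock factor 1 when unfolded protein builds up, through repeated GAA and TTC units in their promoters. Rods make large amounts of a membrane pigment and of ciliary proteins, and misfolded rhodopsin is a known cause of rod degeneration.

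The upstream sequences of the members that led the choice, and of others whose promoters hold stress elements, are shown because they are the parts of the genes that such regulation reads. RefSeq promoter windows (build GRCm38.p6) were listed for 7 of the 10 genes and not for Hspa8, Hsp90aa1 and Hsp90ab1. Each line gives the 250 bases before an annotated start, 5′ to 3′ on the gene's strand. For all but Hspa5, capitals mark every match to GAANNTTC or TTCNNGAA, the paired units of the heat-shock element, each of which reads the same on both strands. For Hspa5, capitals mark the endoplasmic reticulum stress element, which is CCAAT and CCACG with 9 bases between them, searched on both strands.
Hspa1a, chr17:34972157-34972406, minus strand: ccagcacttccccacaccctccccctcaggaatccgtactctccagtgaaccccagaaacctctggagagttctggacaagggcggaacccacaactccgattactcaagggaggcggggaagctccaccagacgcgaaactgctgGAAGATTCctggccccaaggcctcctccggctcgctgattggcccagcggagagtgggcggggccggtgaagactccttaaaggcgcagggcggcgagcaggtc
Hspa1b, chr17:34959239-34959488, minus strand: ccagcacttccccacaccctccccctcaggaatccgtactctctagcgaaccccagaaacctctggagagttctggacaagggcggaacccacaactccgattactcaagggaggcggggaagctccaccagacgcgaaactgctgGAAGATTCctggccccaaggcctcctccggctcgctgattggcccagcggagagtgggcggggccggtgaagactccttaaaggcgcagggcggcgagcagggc
Hsph1, chr5:149636337-149636586, minus strand: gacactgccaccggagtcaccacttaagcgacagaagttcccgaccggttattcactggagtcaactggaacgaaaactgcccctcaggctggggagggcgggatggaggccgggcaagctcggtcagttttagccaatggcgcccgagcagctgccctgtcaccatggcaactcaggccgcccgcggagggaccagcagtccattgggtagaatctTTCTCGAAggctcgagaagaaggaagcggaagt
Hspb1, chr5:135887669-135887918, plus strand: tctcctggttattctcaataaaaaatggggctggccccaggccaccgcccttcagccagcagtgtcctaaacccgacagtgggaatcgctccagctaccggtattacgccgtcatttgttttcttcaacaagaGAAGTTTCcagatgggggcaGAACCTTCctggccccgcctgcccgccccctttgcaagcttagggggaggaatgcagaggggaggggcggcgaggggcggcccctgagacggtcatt
Hspa5, chr2:34771840-34772089, plus strand: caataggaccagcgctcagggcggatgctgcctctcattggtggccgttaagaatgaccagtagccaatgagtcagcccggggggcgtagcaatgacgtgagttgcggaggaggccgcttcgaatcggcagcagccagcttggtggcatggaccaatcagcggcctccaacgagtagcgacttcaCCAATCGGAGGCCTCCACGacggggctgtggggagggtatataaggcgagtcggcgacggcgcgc

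The Hspa1a and Hspa1b windows differed at 3 of 250 bases and each held 1 GAANNTTC match, whose first base lay at -104 from the start. Hspb1 held 2 such matches, at -117 and -97. The Hsph1 window shown held 1 TTCNNGAA match, at -33, and its other annotated start had the same match at -54. GAANNTTC occurred in 6.69% and TTCNNGAA in 7.17% of all 32851 promoter windows of this length. A longer element, GAANNTTC followed by any 2 bases and GAA, searched on both strands, occurred in 0.466% of windows and in none of the 7 genes. In the window of Hspa5, 1 copy of the endoplasmic reticulum stress element began at -65, and 0.113% of windows hold one. In the Hspa4l window and the Dnajb1 windows these letters were not found. A match describes the sequence and does not show that a factor binds there. The search took exact letters only, so that no match does not show that a gene lacks such an element.

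Rod and progenitor markers bore out the label of the rhoGFP-positive group. In the rhoGFP-positive cells all 16 measured rod markers were called higher than in the rhoGFP-negative cells (3.61% of all genes were). Of 11 progenitor markers 9 were called lower (7.32% of all genes were). Markers of other cells moved as well: 3 of 8 endothelial and mural genes, 7 of 12 amacrine and ganglion cell genes and 1 of 4 astrocyte genes were lower, and 2 of 8 pigment epithelium genes, Tyrp1 and Rgr, were higher. Of 8 microglia, 8 lens and 3 erythrocyte genes 0 were called. Between rhoGFP-negative and nestinGFP-positive cells 0 of 11 progenitor markers were called (0.989% of all genes were). The mean log2 value of these markers ran from 11.2 to 11.3 on the nestinGFP-positive and from 10.3 to 11.1 on the rhoGFP-negative arrays. That of the amacrine and ganglion cell genes ran from 8.81 to 9.26 and from 8.04 to 8.62. The mean log2 value of the microglia genes ran from 4.94 to 6.19 in the rhoGFP-positive group, from 4.89 to 5.21 in the rhoGFP-negative group and from 4.49 to 4.91 in the nestinGFP-positive group. The pigment epithelium genes ran from 5.87 to 6.07, from 5.64 to 5.80 and from 5.54 to 5.72 in the same order. The actin 3′ minus 5′ log2 difference, a sign of RNA integrity, was 0.91 ± 0.064 (SD, n = 3), 0.65 ± 0.021 and 0.67 ± 0.30 in that order. The same measure for Gapdh was -0.063 ± 0.021, -0.014 ± 0.075 and -0.072 ± 0.20, so that it did not set the rhoGFP-positive group apart. Signal for 18S ribosomal RNA, averaged over 3 control probe sets, was 12.1 to 13.6 on arrays numbered replicate 1 and 9.65 to 10.4 on all others. The part of these differences in the chaperone values was not tested.

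Hspa1a and Hspa1b, the paired genes of inducible HSP70, were the members with the highest difference between the rod-reporter cells and either other group. Because they chose the set, their values in both comparisons of the rhoGFP-positive cells are a description, with no test. All values are log2 RMA values unless a fold is named. Hspa1a read 10.26, 10.45 and 9.33 on rhoGFP-positive replicates 1, 2 and 3. It read 7.06, 6.13 and 6.00 on the rhoGFP-negative arrays and 5.57, 7.63 and 5.89 on the nestinGFP-positive arrays. The lowest rhoGFP-positive array thus lay above all 6 others, and the nearest of these was nestinGFP-positive replicate 2.

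Hspa1b, read by its brightest probe set, stood at 12.19, 11.93 and 11.24 on the rhoGFP-positive arrays. It stood at 9.20, 8.39 and 7.94 on the rhoGFP-negative arrays and at 7.79, 9.62 and 7.95 on the nestinGFP-positive arrays. The groups separated in the same way, and again nestinGFP-positive replicate 2 was the highest array outside the rhoGFP-positive group. In bulk RNA such as this, more cells with a transcript and more transcript per cell cannot be told apart.

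The mean of Hspa1a was 10.01 ± 0.60 (SD, n = 3) in rhoGFP-positive, 6.40 ± 0.58 in rhoGFP-negative and 6.37 ± 1.11 in nestinGFP-positive cells. That is a difference of 3.62 ± 0.52 (SE), or 12.3-fold, from the rhoGFP-negative cells and of 3.65 ± 0.52, or 12.5-fold, from the nestinGFP-positive cells. Hspa1b averaged 11.79 ± 0.49, 8.51 ± 0.64 and 8.45 ± 1.01 in the same order, which puts it 9.68-fold and 10.1-fold higher in the rhoGFP-positive cells. Between arrays of the same replicate number the Hspa1a difference between the rhoGFP fractions was 3.20, 4.32 and 3.34, and that of Hspa1b was 2.99, 3.54 and 3.30. Against the nestinGFP-positive arrays of the same number the spread was wider, with 4.69, 2.82 and 3.44 for Hspa1a.

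The 2 other probe sets of Hspa1b gave differences of 3.55 and 3.41 between the rhoGFP fractions, and 3.73 and 3.53 between rhoGFP-positive and nestinGFP-positive cells. Over the 9 arrays the 4 probe sets of the pair correlated at 0.993 to 1.00 with each other. Hspa1a and Hspa1b are near-identical copies, so that their probe sets may share transcripts and are not independent measurements of 2 genes. Hspa1l, the HSP70 gene of the testis that neighbours the pair, had a low signal, 3.62 in rhoGFP-positive and 3.66 in rhoGFP-negative cells (chosen after its values were seen).

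**Figure D1:**
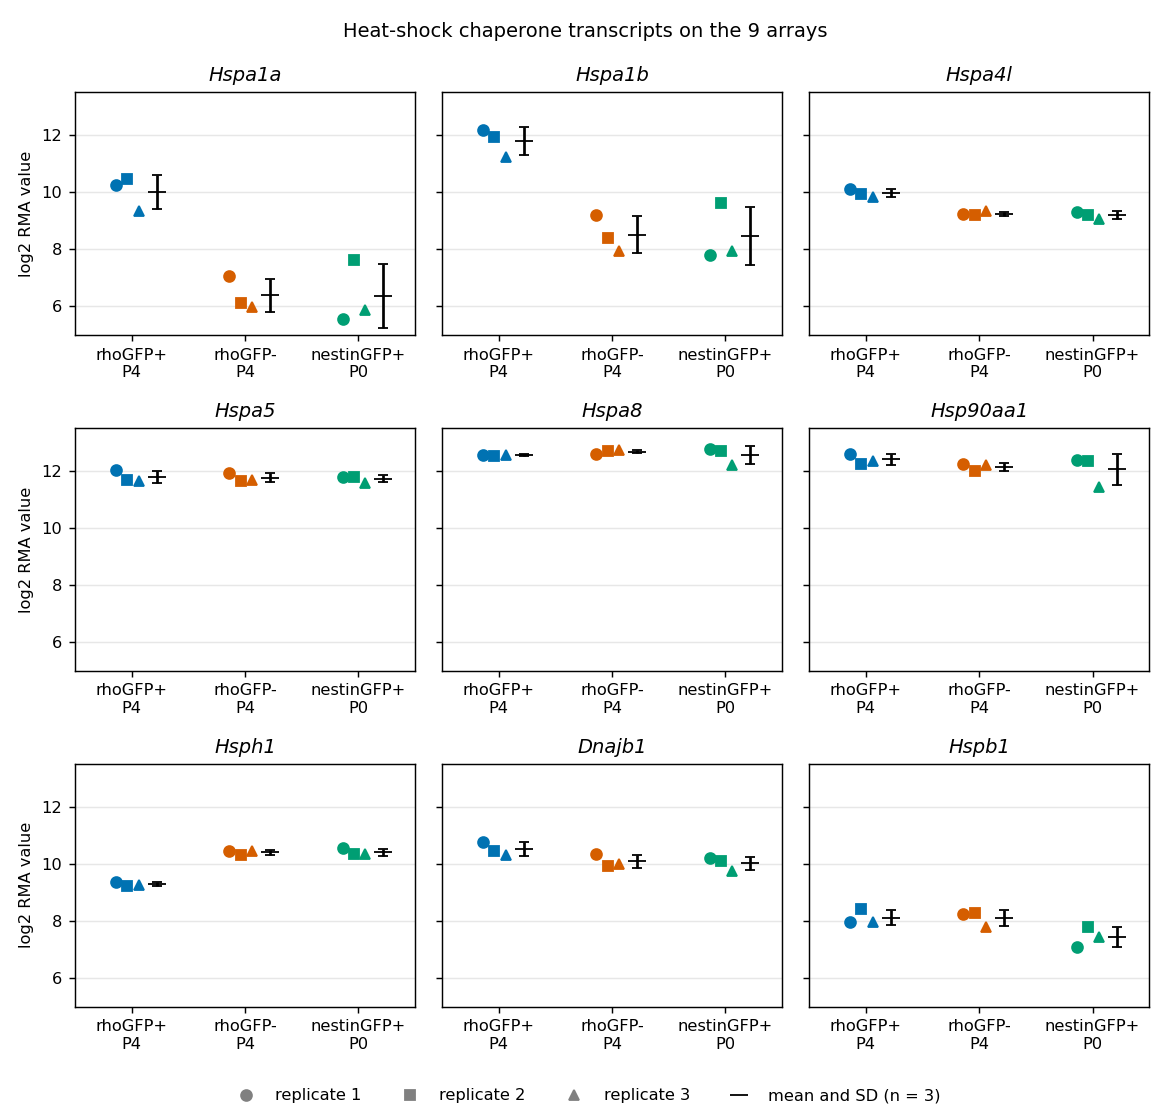
Log2 RMA values (vertical axis) of the 9 measured chaperone genes on each array, with circles, squares and triangles for replicates 1, 2 and 3 and black bars for the group mean ± SD (n = 3). Hspa1a and Hspa1b separate the rhoGFP-positive arrays upwards and Hsph1 downwards, Hspa4l is higher by less than 1 log2 unit, and Hspa5 and Hspa8 stay within about the same range in all 3 groups.

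Hspa4l encodes an HSP110-family exchange factor best known from mouse testis. By its brightest probe set it read 10.12, 9.95 and 9.82 on the rhoGFP-positive arrays. It read 9.23, 9.20 and 9.33 on the rhoGFP-negative and 9.31, 9.22 and 9.05 on the nestinGFP-positive arrays. All rhoGFP-positive arrays were above all others, by 0.71 ± 0.11 (SE) over rhoGFP-negative and 0.77 ± 0.11 over nestinGFP-positive cells on average. The second difference had a limma adjusted p of 0.000537 but was below the minimum of 1 that a call required.

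The 5 probe sets of Hspa4l differed in size but not in direction. Their differences between rhoGFP-positive and nestinGFP-positive cells were 0.52, 0.77, 1.11, 1.15 and 1.72, and 3 of the 5 were called higher in the fit of all probe sets. Those 3 had limma adjusted p of 0.000391, 0.00143 and 0.00359. With the mean of its probe sets in place of the brightest, Hspa4l was called higher, at 1.05 with a limma adjusted p of 0.000267. The widest difference came from the probe set with the lowest signal, which read 8.59 ± 0.50 in rhoGFP-positive and 6.87 ± 0.42 in nestinGFP-positive cells. Over the 9 arrays the correlations among the 5 probe sets ran from 0.642 to 0.993.

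Hsph1 encodes HSP110 (also Hsp105), an exchange factor for cytosolic HSP70 that heat-shock factor 1 also drives. It went the other way. It read 9.38, 9.23 and 9.26 on the rhoGFP-positive arrays against 10.46, 10.30 and 10.44 on the rhoGFP-negative arrays. The nestinGFP-positive arrays gave 10.55, 10.34 and 10.34, so that the rhoGFP-positive arrays lay below all others. Hsph1 fell by 1.12 ± 0.11 (SE) in rhoGFP-positive against nestinGFP-positive cells, a 2.17-fold difference (limma adjusted p = 3.08e-05). Between the rhoGFP fractions, given as a description, the difference was -1.11 ± 0.11, and -1.09, -1.07 and -1.18 within replicate numbers 1, 2 and 3. Its second probe set gave -1.24 ± 0.17 against nestinGFP-positive cells (limma adjusted p = 0.000613). The SD of Hsph1 within groups was 0.077 to 0.12, against 0.49 to 1.11 for Hspa1a and Hspa1b.

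Hspa8, the constitutive HSP70 of the cytosol, read 12.56, 12.51 and 12.57 on the rhoGFP-positive arrays and 12.60, 12.69 and 12.72 on the rhoGFP-negative arrays. The nestinGFP-positive arrays read 12.77, 12.70 and 12.21, a range that holds both other groups. The rhoGFP-positive minus nestinGFP-positive difference was -0.014 with a 95% interval of -0.34 to 0.31 (limma adjusted p = 0.949). Its 3 other probe sets gave 0.066, 0.12 and 0.064, and 0 of its 4 were called. The probe set used for Hspa8 and the one at 0.066 are of the _x_at kind, which may cross-hybridise.

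Hspa5 encodes BiP, the HSP70 of the endoplasmic reticulum and a marker of the unfolded protein response. It read 12.04, 11.70 and 11.65, then 11.94, 11.65 and 11.69, then 11.79, 11.80 and 11.59 in the groups, taken in the same order as above, and the groups overlap. The difference from nestinGFP-positive cells was 0.071, with a 95% interval of -0.24 to 0.38 (limma adjusted p = 0.717). A dimmer probe set of Hspa5 of the _x_at kind, which may cross-hybridise, stood apart at 0.69 ± 0.11 (limma adjusted p = 0.00118), below the minimum for a call. Between the rhoGFP fractions, given as a description, that probe set was 0.46 ± 0.11 higher, and its arrays did not overlap.

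Hsp90aa1, the stress-responsive cytosolic HSP90, read 12.61, 12.24 and 12.35 on the rhoGFP-positive arrays and 12.23, 11.99 and 12.20 on the rhoGFP-negative arrays. The nestinGFP-positive arrays read 12.37, 12.34 and 11.43. The rhoGFP-positive arrays were just above the rhoGFP-negative ones and overlapped with the nestinGFP-positive ones. The difference from nestinGFP-positive cells was 0.35, with a 95% interval of -0.17 to 0.87 (limma adjusted p = 0.273), and it was 0.041 without nestinGFP-positive replicate 3. The others of its 5 probe sets gave 0.63, 0.37, 0.35 and 0.15 in this comparison and were not called. Arrays of the probe set at 0.37 did not overlap (limma adjusted p = 0.0542). The probe set at 0.15 had a very low signal, 4.09 to 4.24 on average in the groups.

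Dnajb1 encodes the HSP40 that works with inducible HSP70. It read 10.78, 10.44 and 10.30 on the rhoGFP-positive, 10.35, 9.93 and 9.997 on the rhoGFP-negative and 10.19, 10.12 and 9.76 on the nestinGFP-positive arrays. By this probe set, its brightest, the rhoGFP-positive arrays stood above the nestinGFP-positive arrays and overlapped with the rhoGFP-negative ones. The difference was 0.49 ± 0.17 (SE) from the nestinGFP-positive cells (limma adjusted p = 0.0521, and 0.0263 with the mean of its probe sets), below the minimum for a call. From the rhoGFP-negative cells it was 0.42 ± 0.17, and 0.43, 0.51 and 0.31 within replicate numbers 1, 2 and 3, so that the rhoGFP-positive array was the higher of each pair. The other Dnajb1 probe set gave 0.63 ± 0.27 and 0.43 ± 0.27 in these comparisons and was not called. There the rhoGFP-positive arrays overlapped with the nestinGFP-positive and not with the rhoGFP-negative ones.

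Hspb1 encodes HSP27 (Hsp25 in the mouse), a small heat-shock protein that holds unfolded proteins without ATP. It read 7.96, 8.43 and 7.96 on the rhoGFP-positive and 8.23, 8.30 and 7.79 on the rhoGFP-negative arrays, which overlap. The nestinGFP-positive arrays were lower, at 7.07, 7.79 and 7.44, and touched the rhoGFP-negative range only through replicate 2. Hspb1 was 0.68 ± 0.21 (SE) above the nestinGFP-positive cells in the rhoGFP-positive cells (limma adjusted p = 0.0314), below the minimum for a call. It was 0.67 ± 0.21 above them in the rhoGFP-negative cells (limma adjusted p = 0.135, and 0.0185 with replicate number as a block). Pairing by replicate number was uncertain for these groups. The dimmer probe set of Hspb1, of the _x_at kind, was 0.70 ± 0.20 above the nestinGFP-positive cells in the rhoGFP-positive cells (limma adjusted p = 0.0316). It was 0.65 ± 0.20 above them in the rhoGFP-negative cells (limma adjusted p = 0.186). Its arrays did not overlap in either of these comparisons.

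**Figure D2:**
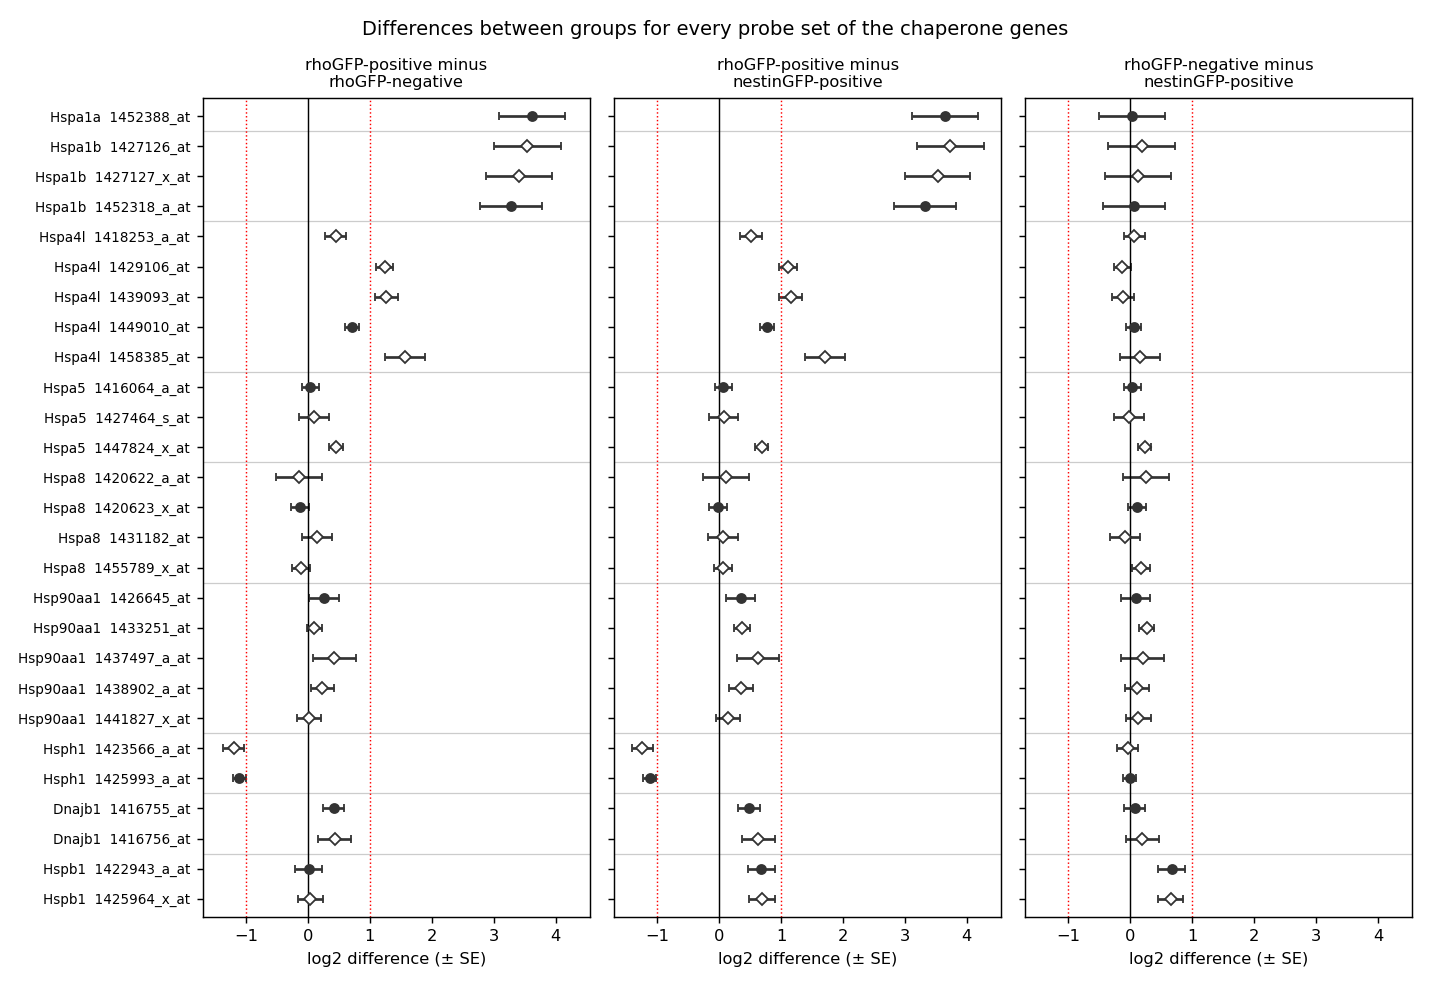
Log2 differences ± SE (horizontal axis) of all 27 probe sets in the 3 comparisons, where filled circles are the probe set used for the gene, open diamonds are the others, and dotted lines mark a difference of 1 either way. The 4 Hspa1a and Hspa1b probe sets lie between 3.27 and 3.73 in the first 2 panels, the 2 Hsph1 probe sets lie below -1, and all probe sets lie within 1 of zero in the third.

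Between the rhoGFP fractions limma called 2 of the 9 measured genes higher (Hspa1a and Hspa1b; 3.61% of all genes were called higher) and 1 lower (Hsph1; 7.32% of all genes). A call needed both an adjusted p under 0.05 and a log2 difference of 1 or more in size. Since this comparison chose the members, the count is a description. The arrays did not overlap, with the rhoGFP-positive cells higher, for 4 genes (17.9% of all genes) and lower for 2 (20.3% of all genes). Of the 27 probe sets 7 were called higher (3.07% of all probe sets) and 2 lower (4.96% of all probe sets).

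Between rhoGFP-positive and nestinGFP-positive cells, which share the rhoGFP-positive arrays with the comparison above and differ in age and line as well, the same numbers were called: 2 higher (5.06% of all genes) and 1 lower (10.5% of all genes). Of the probe sets, 7 were called higher (4.45% of all probe sets) and 2 lower (7.78% of all probe sets). Among the 7 members that did not lead the choice, 0 were called higher and Hsph1 was called lower, and their median difference was 0.35 against 0.064 over all genes. Between the rhoGFP fractions, given as a description, the median of the same 7 was 0.038 against 0.0094 over all genes. Limma gave an adjusted p below 0.05, at any size of difference, for 3 of these 7 genes (Hspa4l, Hsph1 and Hspb1), and for 35.8% of all genes. The arrays did not overlap for 5 genes with the rhoGFP-positive cells higher (24.4% of all genes) and for 1 with them lower (23.4% of all genes).

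The rhoGFP-negative and nestinGFP-positive cells, a comparison the choice of members did not use though it shares arrays with the other 2, were compared for all 9 genes. Limma called 0 of them, and 1, Hspb1, had an unadjusted p below 0.05; 0.989% of all genes were called either way (0.385% higher and 0.605% lower), and 2.03% had an adjusted p below 0.05. Of the 27 probe sets 0 were called (0.164% of all probe sets were called higher and 0.28% lower). By the probe set used for each gene the arrays overlapped for all 9 genes, whereas they did not overlap for 11.8% of all genes in the higher and 8.79% in the lower direction. That background depended on single arrays: it was 180 genes of 18193, 453 with replicate number as a block, and 19 to 559 when each array was left out in turn, while 0 chaperone genes were called each time. The difference was 0.030 for Hspa1a, with a 95% interval of -1.15 to 1.21, and 0.057 for Hspa1b, with an interval of -1.04 to 1.16. Such intervals allow a difference of over 1 either way. Within replicate numbers 1, 2 and 3 Hspa1a differed by 1.49, -1.50 and 0.11 between these groups, so that its sign turned with the pair of arrays. The interval was narrow for Hsph1, at -0.25 to 0.23, and for Hspa4l, at -0.20 to 0.31.

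The other genes of the folding system were taken from lists made with earlier results of these data known. Genes named from the lists as called were picked by their result, so their adjusted p values are a description. Of 9 further HSP70 and HSP110 genes, 14 of the HSP90 system and its cochaperones, 10 nucleotide exchange factors, 5 heat-shock factors and partners and 10 chaperonin genes, 0 were called in either comparison of the rhoGFP-positive cells. Of all genes, 3.61% were called higher and 7.32% lower between the rhoGFP fractions, and 5.06% and 10.5% against nestinGFP-positive cells. The list medians between the rhoGFP fractions were -0.083, -0.043, -0.10, 0.0089 and -0.32 in that order, beside 0.0094 over all genes. Chaperonin subunits thus had the lowest median of these lists, and it was -0.35 against nestinGFP-positive cells beside 0.064 over all genes. Hsf1 is not analysed here.

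Among 18 further HSP40 genes 1 was called higher (3.61% of all genes) and 1 lower (7.32% of all genes) between the rhoGFP fractions. Against nestinGFP-positive cells 3 were called higher (5.06% of all genes) and 1 lower (10.5% of all genes). Dnaja4 was at 8.95 in rhoGFP-positive, 7.58 in rhoGFP-negative and 7.19 in nestinGFP-positive cells, with differences of 1.37 ± 0.21 (limma adjusted p = 0.000931) and 1.75 ± 0.21 (limma adjusted p = 0.000124). Dnajb5 fell by 1.09 ± 0.14 and 1.30 ± 0.14 in the same comparisons (limma adjusted p = 0.000310 and 6.35e-05). Dnajc6, which encodes the neuronal clathrin-uncoating partner auxilin, and Dnajb14, a membrane HSP40 of the endoplasmic reticulum, were called higher against nestinGFP-positive cells, by 1.18 and 1.03.

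Among 7 further small heat-shock proteins Hspb6 (HSP20) rose in both comparisons, by 1.97 ± 0.18 from 8.22 in rhoGFP-negative cells and by 2.21 ± 0.18 from 7.97 in nestinGFP-positive cells (limma adjusted p = 4.40e-05 and 1.40e-05). Cryab, which encodes αB-crystallin, was called higher against nestinGFP-positive cells, by 1.13 ± 0.34 (limma adjusted p = 0.0274), at a low signal of 5.71 against 4.58. Of 24 genes of endoplasmic reticulum folding and the unfolded protein response 0 were called higher in these comparisons (3.61% and 5.06% of all genes were). Sdf2l1, a BiP partner, fell by 1.20 ± 0.26 and 1.53 ± 0.26 (limma adjusted p = 0.00738 and 0.00121). The list median was 0.020 between the rhoGFP fractions and 0.0064 against nestinGFP-positive cells. In the second comparison uncalled genes with a limma adjusted p below 0.05 went both ways, and 35.8% of all genes passed that limit. Those higher were Atf4 (0.90), Atf6 (0.87), Ddit3 (0.86), Pdia4 (0.71), Xbp1 (0.60) and Trib3 (0.57). Those lower were Edem1 (-0.41), Pdia3 (-0.48) and Pdia6 (-0.49).

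Immediate early genes, which cells switch on within minutes of a disturbance, went both ways. Of 26 measured, 3 were called higher (3.61% of all genes) and 5 lower (7.32% of all genes) between the rhoGFP fractions, with a list median of -0.051. Against nestinGFP-positive cells 6 were called higher (5.06% of all genes) and 3 lower (10.5% of all genes), with a median of 0.11. In that comparison the anti-apoptotic gene Ier3 rose by 3.44 ± 0.29, Junb by 2.27 ± 0.29, Fosb by 1.31 ± 0.33 and the nuclear receptor gene Nr4a1 by 1.27 ± 0.14. The related receptor Nr4a2 fell by 2.64 ± 0.32, the matrix protein gene Ccn1 by 2.03 ± 0.33 and Ier5, which promotes heat-shock factor 1 activity, by 1.10 ± 0.23. Between the rhoGFP fractions Ccn1, Nr4a2 and Ier5 were among the 5 genes called lower, by 1.64, 1.71 and 1.18 log2 units in size. The 3 genes called higher there are not listed. The mean of the 26 genes ran from 8.24 to 8.41 on the rhoGFP-positive, from 8.28 to 8.54 on the rhoGFP-negative and from 7.97 to 8.43 on the nestinGFP-positive arrays, so that the groups overlapped. Their part in the Hspa1a and Hspa1b values was not tested.

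**Figure D3:**
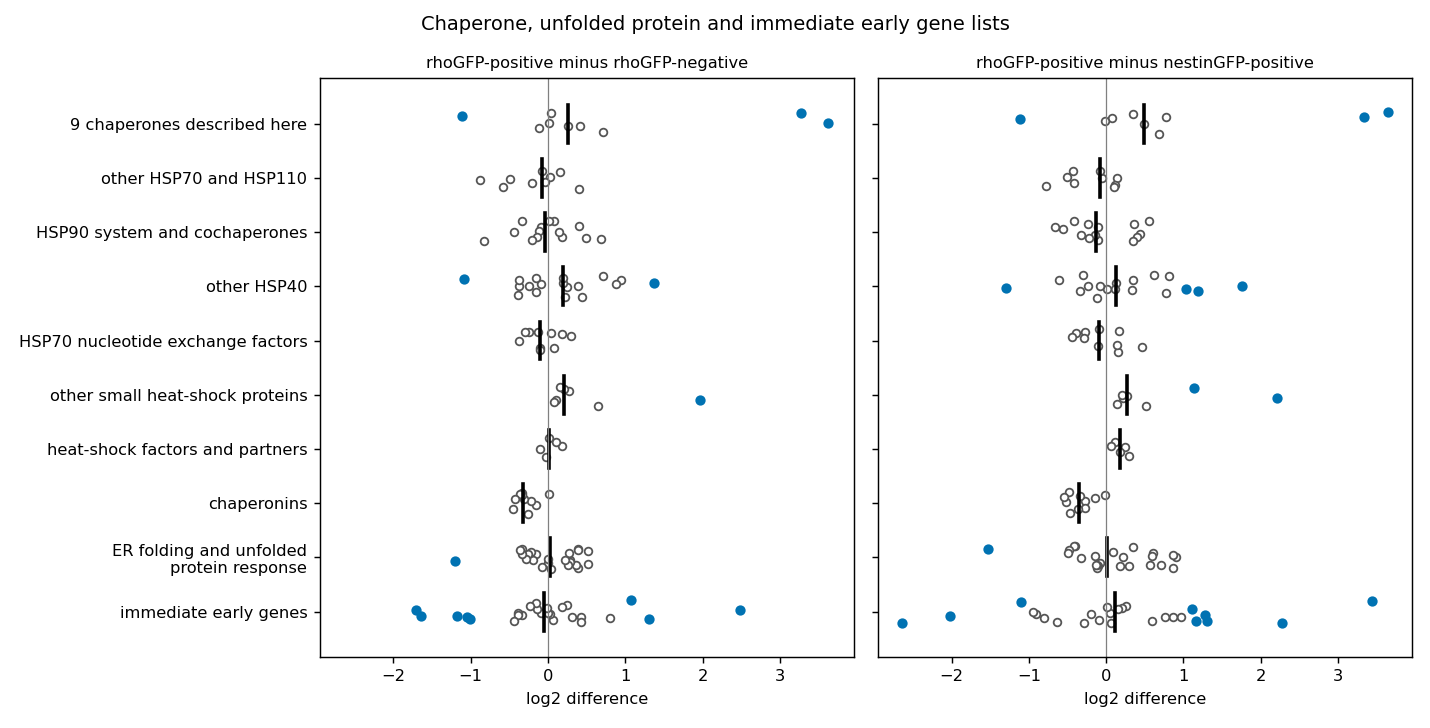
Log2 differences (horizontal axis) of single genes in 10 groups of chaperone and stress genes, for the 2 comparisons of rhoGFP-positive cells, with filled points for genes called by limma, open points for the others, and a black bar at the median of each group. Points in the chaperonin, exchange factor, heat-shock factor and HSP90 rows are all open, whereas called genes lie on both sides of zero in the immediate early row.

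Over the 9 arrays the other members followed the mean of Hspa1a and Hspa1b to different degrees, given here as a description in which the points share the 3 groups. Hspa4l correlated with it at 0.915 and Dnajb1 at 0.818, Hspb1 at 0.547, Hsp90aa1 at 0.542 and Hspa5 at 0.364. Hspa8 stood at -0.150 and Hsph1 at -0.932. The 8 genes most like the pair, by Pearson correlation among the 1879 genes other than members that ranged over at least 2 log2 units, were Lrguk (0.977), Clba1 (0.967), Tshz2 (0.966), Osbp2 (0.965), Chrna5 (0.961), Mc1r (0.959), C2cd2l (0.959) and Nefh (0.957). Nefh, the heavy neurofilament subunit, was at 8.42 ± 0.26 (SD, n = 3) in rhoGFP-positive, 5.02 ± 0.22 in rhoGFP-negative and 5.14 ± 0.097 in nestinGFP-positive cells. Chrna5, a nicotinic receptor subunit, was at 7.97 ± 0.12, 5.66 ± 0.21 and 5.51 ± 0.18. These patterns share the step between rhoGFP-positive and other cells, and with 9 arrays in 3 groups such a step alone gives a high correlation.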

How the data were processed

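The authors deposited log2 values made with RMA, as the submitters' processing notes say, of a version not stated there. RMA removes background, equalises array distributions by quantiles and condenses probes to probe sets, so that small signals are compressed. Per the labels' protocols, labelled cRNA came from 200 ng RNA. No detection call was used, and the scan order is unknown.

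Symbols came from the platform annotation, updated by Entrez ID for 34741 of the 34945 probe sets with 1 symbol. Another 932 had several symbols and 9160 were not listed with a gene. The probe set with the highest mean over the 9 arrays stood for a gene. The test was limma 3.58.1 (R 4.3.3, lmFit and eBayes, two-sided) over all 18193 genes, or all 45037 probe sets, in 1 fit of 9 arrays with 3 group means, and adjusted by Benjamini and Hochberg over all of them. The median standard error of a difference was 0.14. The number of arrays limits the precision. On simulated data, 97.8% of genes changed by 1.5 log2 units and 100% of those changed by 3 were called in the rhoGFP-positive against rhoGFP-negative comparison, with 2.35 false calls in 18193 genes on average. The simulated arrays were independent normal draws, without the correlation of same-numbered arrays given below. They held no shift near the minimum of 1, so these rates do not cover differences of that size. Figures were drawn with matplotlib 3.10.9.

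Members and lists were chosen with earlier results of these data known. Named genes were all members, the 8 most alike patterns passing over clone and model names, at most 4 called genes each way of each folding or immediate early list, and at most 2 of a marker list. Hspa1l and the uncalled genes of the unfolded protein response list fall outside this rule and were chosen after their values were seen. No array copied another: at most 1358 of 45101 probe sets held equal values on 2 replicates. The deviations of same-numbered arrays from their group means correlated over genes. The values were 0.62, 0.45 and 0.45 for the paired rhoGFP fractions, where different numbers gave -0.49 to 0.074. They were 0.54, 0.15 and 0.23 for rhoGFP-negative with nestinGFP-positive arrays, where different numbers gave -0.39 to 0.22. Numbers were taken to pair arrays in both cases, from the data and not from the labels. In the second case only replicate 1 stood clear of the different numbers, and line and age differ, so pairing there is uncertain. Between rhoGFP-positive and nestinGFP-positive arrays the same-number values were 0.52, -0.0081 and 0.25. The alternatives were other normalizations, probe-set choices, filters, thresholds and eBayes settings, only the arrays compared, the replicate block, and leaving out arrays.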

Additional observations from a re-analysis of the deposited data

How the results depend on the processing

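The 3 called chaperone genes of each comparison of the rhoGFP-positive cells stayed 3 in number (2 higher, 1 lower) under every alternative run except 2. With no minimum difference 4 passed between the rhoGFP fractions (24.3% of all genes) and 5 against nestinGFP-positive cells (35.8% of all genes). With the mean of a gene's probe sets 4 were called (3 higher, 1 lower) in both comparisons, since Hspa4l was then called, at 1.05 in each. The count between rhoGFP-negative and nestinGFP-positive cells was 0 under every alternative run. Leaving out 1 array at a time gave Hspa1a 3.40 to 3.96 between the rhoGFP fractions and 3.25 to 4.28 against nestinGFP-positive cells. With the replicate block the counts of called members were again 3, 3 and 0, and no member's call changed. Leaving out the 3 replicate 1 arrays, chosen after seeing the data, gave 3, 3 and 0 as well.

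Differences near zero changed sign. For Hspa8 in rhoGFP-positive against nestinGFP-positive cells it became 0.033 with a common median, 0.065 after cyclic loess, 0.058 when probe sets were averaged and 0.12 when cross-hybridising kinds (_x_at, _s_at) were dropped; Hsph1 in rhoGFP-negative against nestinGFP-positive cells became 0.011 with a common median. With 1 array left out, the range between the rhoGFP fractions was -0.085 to 0.13 for Hspa5 and -0.15 to 0.11 for Hspb1, and the rhoGFP-positive against nestinGFP-positive range was -0.052 to 0.14 for Hspa5 and -0.19 to 0.092 for Hspa8. Between rhoGFP-negative and nestinGFP-positive cells it was -0.37 to 0.66 for Hspa1a, -0.29 to 0.64 for Hspa1b, -0.016 to 0.11 for Hspa4l (0.13 without the replicate 1 arrays), -0.058 to 0.086 for Hspa5, -0.068 to 0.21 for Hspa8, -0.22 to 0.25 for Hsp90aa1, -0.047 to 0.060 for Hsph1 and -0.062 to 0.16 for Dnajb1. Without the replicate 1 arrays, Hspa5 and Hspa8 were at -0.019 and 0.085 against nestinGFP-positive in the rhoGFP-positive cells. In the rhoGFP-negative cells Hspa1a, Hspa1b, Hspa5 and Hsph1 were then at -0.70, -0.62, -0.024 and 0.027. The cause was not tested.

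Calls over all genes moved most between rhoGFP-negative and nestinGFP-positive cells. Beside 180 genes there were 28 with only the 6 arrays compared, 453 with the replicate block, 370 with no minimum difference and 23 at an adjusted p under 0.01. They were 75 and 112 without rhoGFP-positive replicates 2 and 3, 31, 64 and 559 without rhoGFP-negative replicates 1, 2 and 3, and 327, 19 and 60 without nestinGFP-positive replicates 1, 2 and 3. With no minimum difference 4417 genes passed between the rhoGFP fractions and 6508 between rhoGFP-positive and nestinGFP-positive cells, beside 1988 and 2838.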
